A study of Mus musculus with 13 samples.

Results

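Potassium channel genes were described across 5 sorted cell populations of the neonatal mouse cochlea. The members were all genes of the array table whose symbol starts with Kcn, 80 genes measured by 120 probes, out of 18038 genes on the array. A probe counted as detected on an array where its detection p-value, the scanner software's test of a probe against negative control beads, was under 0.01. Of the 80 genes, 32 were detected on 2 or more of the 13 arrays, and the values given come from these 32. That is 40% of the Kcn genes, where 55.9% of all genes on the array passed the same filter. The choice used no difference between populations.

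The cells came from cochleae of C57BL6 mice at 3 days of age that carried Math1-nGFP, a nuclear GFP reporter of Atoh1 (Math1), the transcription factor that starts hair cell formation. All populations shared that genotype, strain and age, and were separated by flow sorting of the dissociated tissue. BM, the cells that the labels place below the basilar membrane, were GFP-negative, low in CD271 and negative for CD326, and had 1 array. CD271high, GFP-negative cells with high CD271 that the labels call suspected cochlear macrophages, had 3 arrays. HC, the hair cells, were sorted as GFP-positive and had 4 arrays. GER, cells of the greater epithelial ridge beside the inner hair cells, were GFP-negative, low in CD271, high in CD146 and positive for CD326, and had 3 arrays. DC, the gate that the labels assign to cells of Deiters and Claudius, differed from GER in low CD146 and had 2 arrays.

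Potassium channels let potassium leave or enter a cell along its electrochemical gradient, and so set the resting potential and end electrical responses. In the cochlea potassium is also the ion that carries the transduction current: hair cells take it up from the endolymph through their bundles, release it through basolateral channels, and supporting cells and the cells of the lateral wall return it. Immature hair cells are known to fire calcium action potentials before hearing begins, and to acquire their large mature potassium currents later. The Kcn names cover pore-forming subunits gated by voltage, by calcium, by inward rectification or held open as leak channels, together with auxiliary subunits that bind them.

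Levels are log2 values after background correction and quantile normalization. Each array detected 40.2% to 45.2% of its 25697 probes, and the lowest level that counted as detected lay between 6.76 and 7.35 on the 13 arrays. Array values are listed by replicate letter. The labels do not say whether replicates came from separate animals. The p-values therefore measure only how far these samples spread, which may be technical, and the small number of arrays limits the precision. In bulk RNA of a sort, fewer cells of a type and less RNA per cell cannot be told apart.

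The labels were checked against marker genes, as summed linear levels per array. Only markers that passed the detection filter were counted and summed. These were 9 of 10 on the array for macrophages, 7 of 8 for endothelium and 4 of 8 for pericytes and smooth muscle. For Schwann and satellite glia they were 5 of 6, for neurons 3 of 8, and for the stria 5 of 8. All 10 hair cell markers were detected in HC, where their sum was 164100 to 168100, against 9178 to 12250 in GER and DC, with Myo7a, Pou4f3, Gfi1 and Tmc1 detected on no GER array. The 8 supporting cell markers were all detected in HC too, where their sum of 54540 to 66350 lay above the 29850 to 40930 of GER and below the 71270 to 72610 of DC. Atoh1, the gene behind the reporter, was dim: it read 6.43, 5.94, 7.74 and 7.21 in HC, with 2 of the 4 HC arrays detected, against 4.85 to 5.31 in GER and DC, where no array detected it (adjusted p = 0.00052). All 9 macrophage markers that passed were detected in CD271high, with sums of 81270 to 94990. The 5 markers of Schwann and satellite glia that passed were detected there too, with sums of 53540 to 80800. Of the markers that passed, BM held the 5 glial (104100), the 8 mesenchymal (68100), the 7 endothelial (15940) and the 4 pericyte markers (10280). The other 4 of the 8 pericyte and smooth muscle markers did not pass the filter. The mesenchymal signal was not confined to BM: its sums were 41280 to 54010 in GER and DC, 29590 to 33250 in CD271high and 16920 to 25290 in HC. Ngfr, which encodes CD271, went against the CD271high label at the RNA level: it averaged 9.01 in CD271high, against 10.61 in HC, 9.82 in GER and 12.49 in DC. Among the hair cell arrays HC D stood apart in glial markers, with a sum of 16610 against 1823 to 2999 on the other HC arrays.

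Promoter windows of 5 members that were highest in 1 or 2 populations are shown, taken from RefSeq on build GRCm38.p6, from 250 bases before to 50 bases after an annotated start. Kcna10, Kcnip3 and Kcnh2 are the Kcn genes furthest above the neighbouring epithelium in HC, Kcnk13 was detected in CD271high alone, and Kcnc4 in DC and BM. Capitals mark the E-box hexamers CAGCTG and CAGATG on either strand (the second reads CATCTG on the opposite strand), a class of sequence bound by Atoh1 and other basic helix-loop-helix factors. The windows lie at chr3:107182893-107183192 (plus strand) for Kcna10, chr2:127522045-127522344 (minus strand, the first of 3 annotated starts) for Kcnip3, chr5:24329542-24329841 (minus strand) for Kcnh2, chr12:99964249-99964548 (plus strand) for Kcnk13 and chr3:107458849-107459148 (minus strand) for Kcnc4.
Kcna10: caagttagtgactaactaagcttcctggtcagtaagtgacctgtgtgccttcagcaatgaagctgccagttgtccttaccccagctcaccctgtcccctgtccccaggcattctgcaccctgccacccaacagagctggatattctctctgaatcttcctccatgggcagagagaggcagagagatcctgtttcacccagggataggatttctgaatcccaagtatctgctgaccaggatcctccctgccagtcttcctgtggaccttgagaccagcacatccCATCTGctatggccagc
Kcnip3: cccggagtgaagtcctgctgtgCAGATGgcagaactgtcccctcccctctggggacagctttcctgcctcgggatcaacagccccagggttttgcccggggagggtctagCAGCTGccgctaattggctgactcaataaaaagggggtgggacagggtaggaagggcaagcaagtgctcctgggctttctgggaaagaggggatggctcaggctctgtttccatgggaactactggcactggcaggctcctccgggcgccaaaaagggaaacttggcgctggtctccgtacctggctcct
Kcnh2: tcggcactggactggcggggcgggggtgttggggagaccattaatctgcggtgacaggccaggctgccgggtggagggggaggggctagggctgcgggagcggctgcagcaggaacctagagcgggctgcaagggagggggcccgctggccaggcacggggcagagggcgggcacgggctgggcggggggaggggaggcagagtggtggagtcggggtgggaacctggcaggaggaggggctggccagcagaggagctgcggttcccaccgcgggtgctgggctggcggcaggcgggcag
Kcnk13: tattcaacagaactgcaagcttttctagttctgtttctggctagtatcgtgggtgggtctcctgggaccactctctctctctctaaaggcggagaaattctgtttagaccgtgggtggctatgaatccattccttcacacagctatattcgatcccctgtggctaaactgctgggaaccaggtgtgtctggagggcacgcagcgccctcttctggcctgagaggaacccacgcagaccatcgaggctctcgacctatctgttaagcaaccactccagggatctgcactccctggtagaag
Kcnc4: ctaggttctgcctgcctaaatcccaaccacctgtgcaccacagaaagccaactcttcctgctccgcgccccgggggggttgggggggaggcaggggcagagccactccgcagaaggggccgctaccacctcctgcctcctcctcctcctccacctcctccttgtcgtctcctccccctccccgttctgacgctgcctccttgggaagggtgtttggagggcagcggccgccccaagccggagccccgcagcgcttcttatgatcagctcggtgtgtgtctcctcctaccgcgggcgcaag
Of the 32 members, 22 had a window in the table, 35 windows in all, and 12 of these (34.3%) held at least 1 of both hexamers, where 30.6% of all 32851 windows did. Among the 10 genes higher in HC, 7 had a window, and 2 of these, Kcna10 and Kcnip3, held a hexamer, where 33.4% of all genes with windows did. By window that was 2 of 13, where 30.6% of all windows held one. A match describes the letters only.

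Most voltage-gated pore subunits on the array were not detected, while most calcium-activated and leak channels were. Of 34 voltage-gated pore subunits 10 were kept, of 16 auxiliary subunits 7, of 7 calcium- or sodium-activated and Slo channels 5, of 12 inward rectifiers 4, and of 11 tandem-pore leak channels 6. Kcnab2, Kcnh2, Kcnk1 and Kcnmb4 were detected on all 13 arrays. Of the 48 genes that were not kept, 44 were detected on no array, among them Kcnd2 and Kcnd3, the pore subunits to which Kcnip proteins bind, and the auxiliary subunit Kcnmb2. Just inside the rule, Kcna1 was detected on CD271high A and BM, Kcnj15 on both DC arrays and Kcnma1 on HC A and C. Just outside it, Kcna5 was detected on HC B, Kcna6 on CD271high C, Kcnh6 on HC C, and Kcnj2 on CD271high B.

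**Figure D1:**
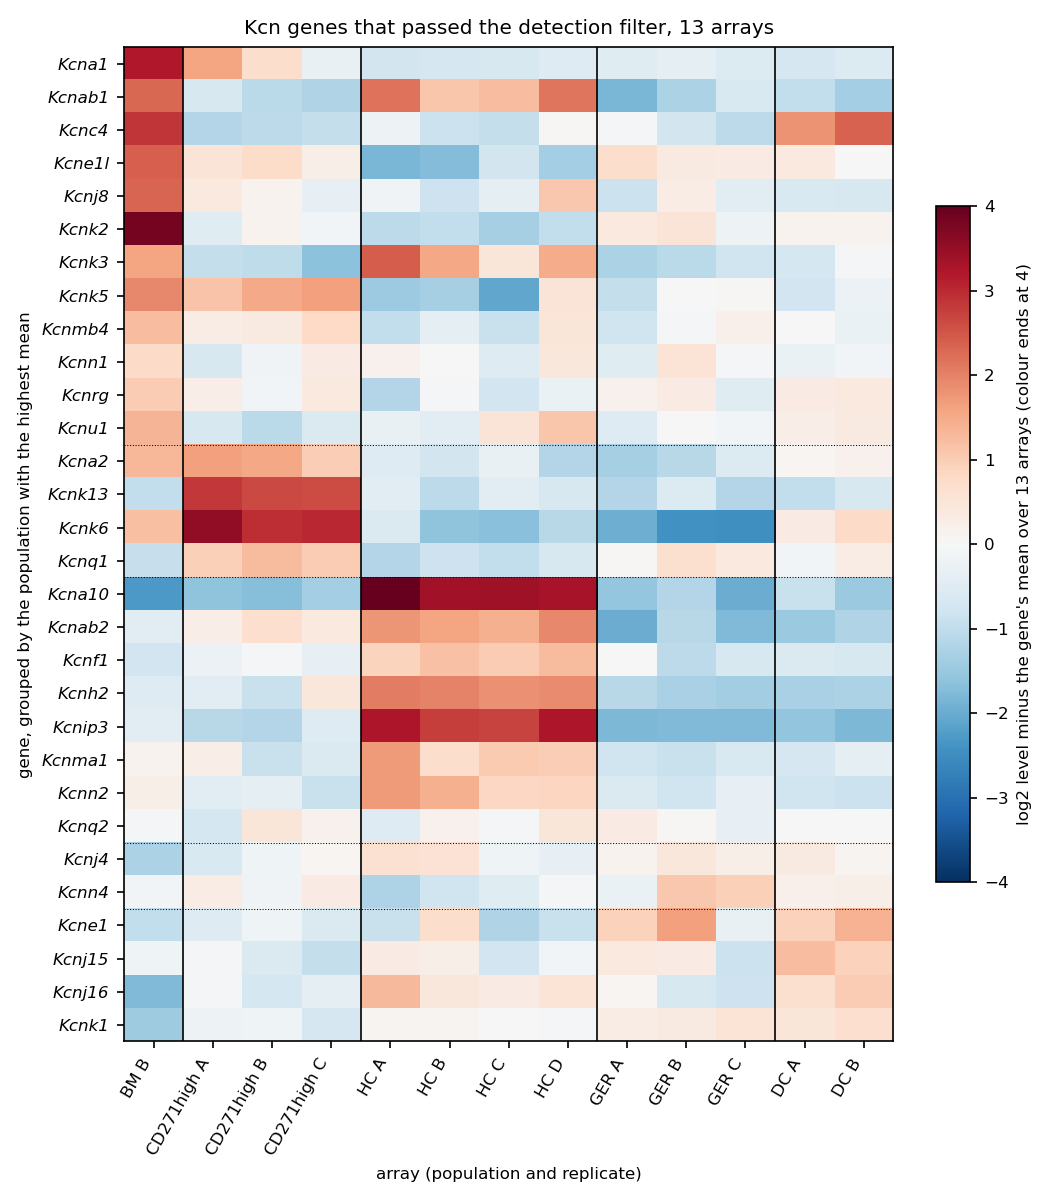
Log2 level of 30 of the 32 kept Kcn genes on each of the 13 arrays, minus that gene's mean over the 13 arrays, with genes grouped by the population of highest mean and arrays by population. The block of Kcna10, Kcnab2, Kcnf1, Kcnh2, Kcnip3, Kcnma1 and Kcnn2 is high on all 4 HC arrays, Kcnk13 and Kcnk6 on the 3 CD271high arrays, and Kcnk2 and Kcna1 on the BM array.

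HC were compared with the mean of GER and DC, the GFP-negative epithelial cells beside them. Of the 32 genes 10 were higher in HC and 8 lower at an adjusted p under 0.05. Over all 10088 genes tested, 46.0% passed, 19.5% as higher and 26.5% as lower. The genes higher in HC included the voltage-gated subunits Kcna10, Kcnf1 and Kcnh2, the auxiliary subunits Kcnip3, Kcnab1 and Kcnab2, the calcium-activated channels Kcnn2 and Kcnma1, and the leak channel Kcnk3. Of the 32 genes 14 (43.8%) passed with sides that did not overlap on any array, against 35.0% of all genes tested. Among the 10 higher genes 7 were detected on no GER or DC array. The median difference of the 32 genes was -0.03 and the median absolute difference 0.90, against -0.09 and 0.43 over all genes tested. With the undetected sides set to their bounds the median absolute differences were 0.31 and 0.36.

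Kcna10, a voltage-gated channel of the shaker family known from hair cells, read 11.65, 10.98, 11.00 and 10.92 on the HC arrays, against 6.06, 6.44 and 5.63 on the GER arrays and 6.73 and 6.12 on the DC arrays. It was detected on the 4 HC arrays and on no other array of the series, CD271high and BM included. Where 1 side of a comparison had no detected array, the fold given is a lower bound, for which that side was set, array by array, to the lowest detected level of the array or the probe's own level, whichever was higher. By this bound Kcna10 was at least 16.3-fold higher in HC (means 11.14 in HC and 6.23 over GER and DC, adjusted p = 3.2e-09). A second probe also passed (adjusted p = 3.9e-06), as did the comparison within beadchip 1 (adjusted p = 5.6e-05) and within beadchip 2 (adjusted p = 0.00067), the slides on which the arrays lay. Beadchip 1 held 1 HC array and beadchip 2 no DC array, so the second value compares HC with GER C alone.

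Kcnh2 encodes the ERG channel, which in the heart carries the rapid delayed rectifier current. It read 11.45, 11.40, 11.23 and 11.31 on the HC arrays, against 8.30, 8.11 and 8.04 on the GER arrays and 8.11 and 8.14 on the DC arrays. The groups did not overlap, and the HC arrays spread by less than the gap between them and the others. The difference was 9.26-fold (3.21 ± 0.22 on the log2 scale, SE, adjusted p = 1.9e-07), and the second probe gave 3.43 (adjusted p = 7.3e-09). Within each of the beadchips it was 3.28.

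Kcnf1, a subunit that forms no channel alone, was dim but read 7.25, 7.53, 7.39 and 7.64 on the HC arrays, against 6.33, 5.31 and 5.73 in GER and 5.77 and 5.73 in DC. Of the 4 HC arrays 3 detected it and no other array did, and it was at least 1.26-fold higher in HC (means 7.45 in HC and 5.77 over GER and DC, adjusted p = 1.5e-05).

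Of the auxiliary subunits 3 were higher in HC. Kcnip3, a calcium-binding protein that joins Kcnd channels and is also known as a transcriptional repressor, read 10.42, 9.93, 9.89 and 10.41 on the HC arrays, against 5.38, 5.41 and 5.40 in GER and 5.60 and 5.39 in DC. Only the 4 HC arrays detected it, and it was at least 8.26-fold higher there (means 10.16 in HC and 5.45 over GER and DC, adjusted p = 7.8e-10), while no Kcnd gene on the array was detected on any array. Kcnab2, a cytoplasmic subunit that binds shaker channels, read 11.39, 11.21, 11.05 and 11.54 in HC, against 7.65, 8.51 and 7.88 in GER and 8.16 and 8.43 in DC. Every array detected it, and it stood 8.84-fold higher in HC (3.14 ± 0.19, adjusted p = 5.6e-08), without overlap. Its relative Kcnab1, which speeds inactivation of shaker channels, read 9.37, 8.31, 8.44 and 9.37 in HC, against 5.38, 5.94 and 6.60 in GER and 6.24 and 5.86 in DC. Kcnab1 was at least 3.38-fold higher in HC (means 8.87 in HC and 6.01 over GER and DC, adjusted p = 8.6e-06), but at an adjusted p of 0.0504 it missed the threshold within beadchip 2.

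Among the calcium-activated channels, Kcnn2, the small-conductance channel that opens behind the nicotinic receptors of hair cells, read 8.46, 8.19, 7.58 and 7.62 in HC, against 6.20, 5.96 and 6.44 in GER and 5.96 and 5.92 in DC. No array outside HC detected it, and it was at least 1.80-fold higher in HC (means 7.96 in HC and 6.07 over GER and DC, adjusted p = 1.2e-05). Kcnma1, the large-conductance channel whose current marks mature inner hair cells, read 7.85, 6.85, 7.20 and 7.12 in HC, against 5.35, 5.26 and 5.54 in GER and 5.47 and 5.76 in DC. The HC arrays were all above the rest, but HC B and D did not count as detected. Its bound was 1.10-fold higher in HC (means 7.26 in HC and 5.50 over GER and DC, adjusted p = 0.00010). Kcnmb4, a subunit that slows Kcnma1 channels, read 8.47, 9.07, 8.57 and 9.94 in HC, against 8.68, 9.41 and 9.66 in GER and 9.47 and 9.20 in DC, with overlap and no call (-0.28 ± 0.30, adjusted p = 0.47).

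Kcnk3, an acid-sensitive leak channel, read 9.36, 8.47, 7.41 and 8.42 in HC, against 5.68, 5.86 and 6.13 in GER and 6.24 and 6.89 in DC. All HC arrays were above all GER and DC arrays, with HC A the highest and HC C the lowest. The gene was at least 2.46-fold higher in HC (means 8.41 in HC and 6.23 over GER and DC, adjusted p = 0.00017). Within beadchip 2 Kcnk3 and Kcnn2 did not pass (adjusted p = 0.065 and 0.062).

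**Figure D2:**
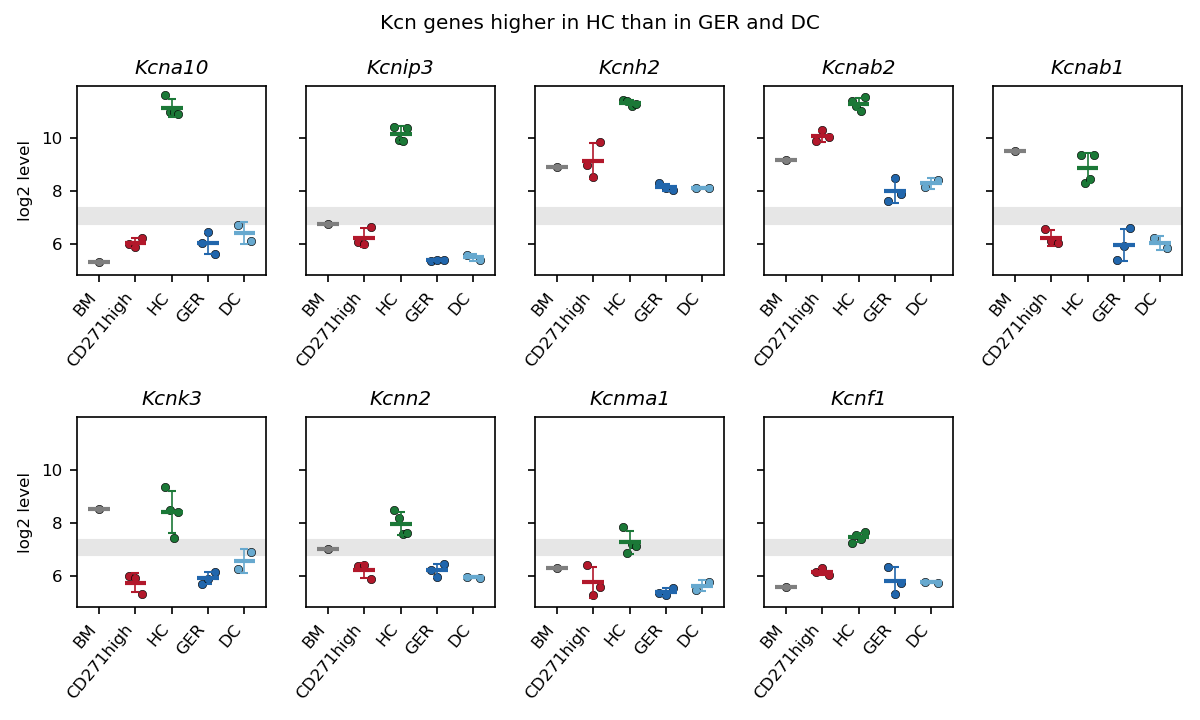
Log2 level of 9 of the 10 Kcn genes that passed as higher in HC against the mean of GER and DC, for every array (points) with the mean and SD of each population (bars); the grey band is the range over arrays of the lowest detected level. For each gene the 4 HC points lie above all GER and DC points, and Kcna10 and Kcnip3 reach 11.65 and 10.42 in HC with all other points in or below the band.

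The other cell types that a sort of HC could hold were read from their own markers. The macrophage sum was 12010 to 14750 in HC, with 5 of 9 markers detected, against 556.1 to 2492 in GER and DC. Endothelial sums were 1229 to 8230 in HC, with all 7 markers detected, against 944.4 to 3742 in GER and DC. Supporting cell sums, given above, were higher in HC than on any GER array. The neuronal sum was 7018 to 10550 in HC, against 599.6 to 3968 in GER and DC. Of 8 neuronal markers on the array only 3 passed the filter (Nefm, Rbfox3 and Stmn2), and HC detected these 3. Of the 10 genes 7 were detected on no CD271high array. Kcnab2 and Kcnh2 were detected on all 3 CD271high arrays, at levels 2.34- and 4.66-fold lower than in HC (adjusted p = 0.00037 and 9.4e-06). All 10 genes also passed without HC D. The part of any of these cell types in the HC differences was not tested.

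The 8 genes lower in HC included both Kcne subunits that were kept, Kcnq1 and 2 leak channels. Kcne1l, a relative of the Kcne1 subunit, read 5.55, 5.65, 6.64 and 6.01 in HC, against 8.07, 7.73 and 7.70 in GER and 7.77 and 7.37 in DC. It was detected on all 5 GER and DC arrays and on no HC array, and was at least 1.495-fold lower in HC (means 5.96 in HC and 7.70 over GER and DC, adjusted p = 4.6e-05). Kcnq1, the delayed rectifier that secretes potassium into the endolymph, read 5.82, 6.17, 6.004 and 6.33 in HC, against 7.03, 7.63 and 7.38 in GER and 6.87 and 7.28 in DC. The groups did not overlap, and the bound was 1.07-fold lower in HC (means 6.08 in HC and 7.21 over GER and DC, adjusted p = 0.00013).

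Its auxiliary subunit Kcne1 read 5.35, 6.95, 5.05 and 5.35 in HC, against 7.16, 7.88 and 5.95 in GER and 7.16 and 7.65 in DC. HC B and GER C overlapped, and the bound was 1.06-fold lower in HC (means 5.68 in HC and 7.20 over GER and DC, adjusted p = 0.011). With the beadchip as a block Kcne1 did not pass (adjusted p = 0.058). The 5 markers of stria marginal and intermediate cells, Kcne1 and Kcnq1 among them, gave sums of 465.8 to 1590 in HC, against 627.3 to 1452 in GER and DC. Mesenchymal sums were 16920 to 25290 in HC, against 41280 to 54010 in GER and DC. The part of either cell type in the genes lower in HC was not tested.

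Kcnk2, a leak channel gated by membrane stretch and lipids, read 5.94, 5.99, 5.66 and 5.99 in HC, against 7.37, 7.49 and 6.79 in GER and 7.13 and 7.12 in DC. All GER and DC arrays but GER C detected it, and no HC array did (at least 1.04-fold lower in HC, means 5.89 in HC and 7.17 over GER and DC, adjusted p = 8.4e-05). Kcnk1, a weakly conducting leak channel, was bright everywhere: 12.46, 12.44, 12.33 and 12.25 in HC, against 12.62, 12.71 and 12.88 in GER and 12.81 and 12.995 in DC. That is 1.37-fold lower in HC without overlap (-0.45 ± 0.14, adjusted p = 0.017), a call lost without DC B (-0.41, adjusted p = 0.065), with median scaling (adjusted p = 0.053), with the replicate block (0.070), against GER alone (0.073) and within beadchips 1 and 2 (0.37 and 0.20). Kcnn4, the intermediate-conductance channel, read 5.36, 5.81, 6.12 and 6.55 in HC, against 6.34, 7.68 and 7.56 in GER and 6.80 and 6.83 in DC, and passed as lower with overlap (adjusted p = 0.012), too dim for a bound. Kcnrg, described in humans as a suppressor of voltage-gated channels, was 1.68-fold lower with overlap (adjusted p = 0.023), a call lost without HC A (adjusted p = 0.073), HC C (0.060), DC A (0.056) or DC B (0.062), against GER alone (0.11) and with the mean of its probes (0.055). A second, dimmer probe of Kcnrg gave -0.52 (adjusted p = 0.20). Kcnc4 passed as well (at least 1.12-fold lower, adjusted p = 0.0018), detected in DC alone among these populations.

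Slide by slide, the sign of the difference was that of the pooled value for 18 of the 18 genes within beadchip 1 and for 16 within beadchip 2, where Kcnc4 and Kcnrg turned. Of the 18 calls 16 passed within beadchip 1 and 8 within beadchip 2, among them Kcna10, Kcnab2, Kcnf1, Kcnh2, Kcnip3, Kcnma1 and Kcnq1. With the beadchip as a block, 17 of the 18 passed.

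Among the genes that did not pass between HC and the mean of GER and DC were all 4 inward rectifiers. Kcnj16, which assembles with other inward rectifiers of supporting cells and stria, read 8.79, 7.94, 7.81 and 8.03 in HC, against 7.56, 6.84 and 6.66 in GER and 8.12 and 8.49 in DC (0.48 ± 0.24, adjusted p = 0.13). Its HC arrays lay above all GER arrays, and the difference from GER alone was 2.18-fold (adjusted p = 0.0060). Kcnk5, an alkaline-activated leak channel, read 6.73, 6.87, 6.11 and 8.70 in HC, against 7.25, 8.19 and 8.25 in GER and 7.42 and 7.97 in DC (-0.69 ± 0.44, adjusted p = 0.22). HC D, the array with the most glial, endothelial and pericyte signal of the 4, held the high value, and without it Kcnk5 passed as lower in HC (-1.23, adjusted p = 0.0033). Kcnj8, which forms the ATP-sensitive channel of vascular cells, was detected in HC on HC D alone, at 7.47 beside 6.26, 5.58 and 5.99 on the other HC arrays.

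**Figure D3:**
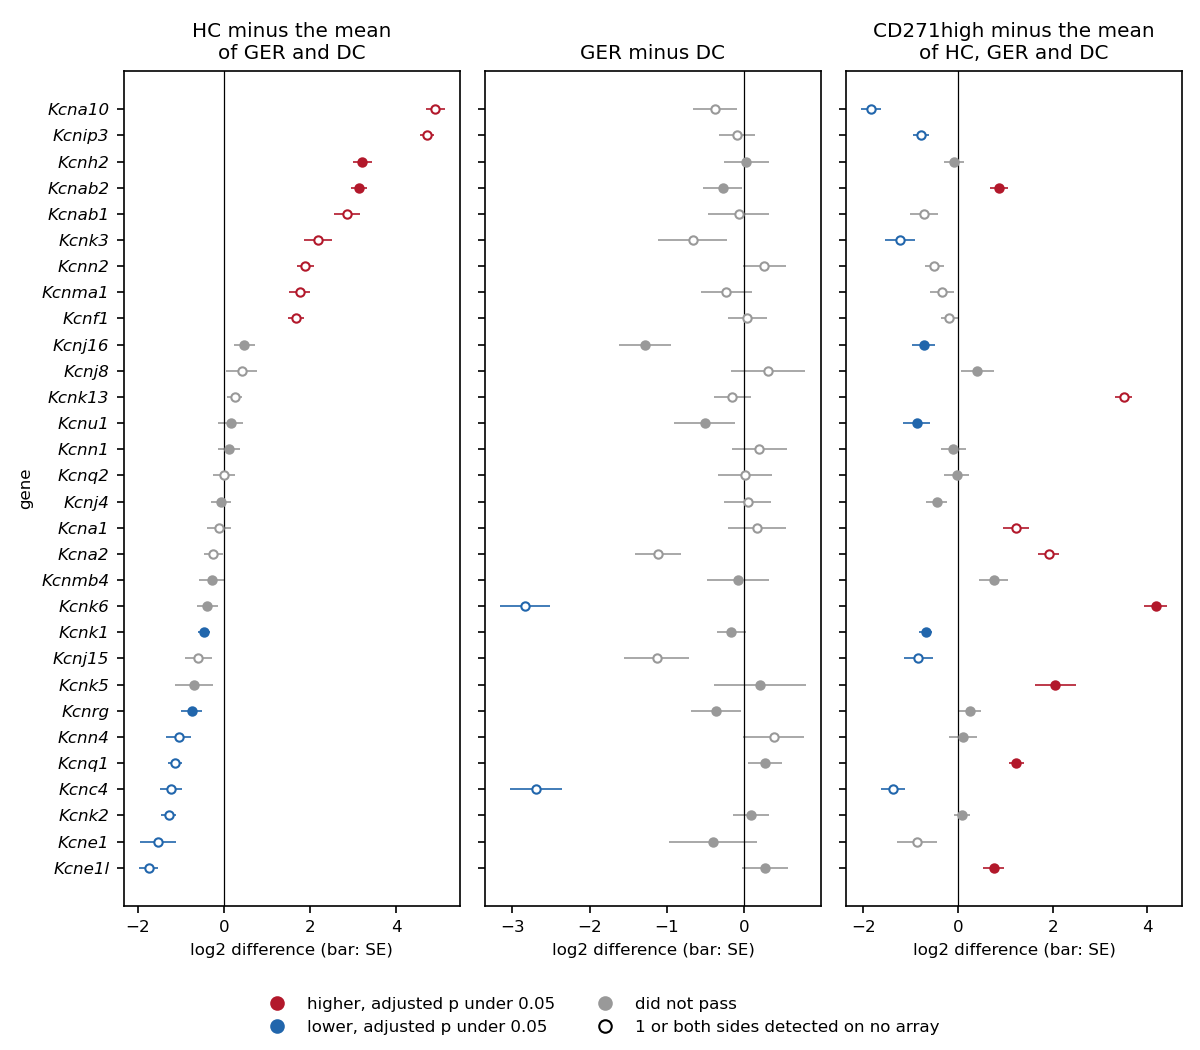
Fitted log2 difference of 30 of the 32 kept Kcn genes with its SE in the 3 tested comparisons, in colour where the adjusted p was under 0.05 and as an open circle where a side was detected on no array, so that the fitted value is no measured fold. Plotted in colour are 9 genes to the right and 8 to the left for HC, 2 for GER against DC, and 8 to the right and 8 to the left for CD271high.

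GER and DC, which the sort separates by CD146, differed in 2 Kcn genes, both lower in GER, and in 0 in the other direction (0 also at an unadjusted p under 0.05 with limma, against 5 lower). Over all genes 4.16% passed, all of them without overlap, 0.892% as higher in GER and 3.27% as lower. Mcam, which encodes CD146, read 11.72 on average in GER and 10.12 in DC, the direction of the sort (3.02-fold, adjusted p = 0.0036). Kcnk6, a leak channel of the same branch as Kcnk1, read 6.23, 5.75 and 5.72 in GER, against 8.52 and 8.95 in DC. Both DC arrays detected it and no GER array did, and it was at least 2.77-fold lower in GER (means 5.90 in GER and 8.73 in DC, adjusted p = 0.00034). A second, dimmer probe of Kcnk6 gave -0.87 and did not pass (adjusted p = 0.087).

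Kcnc4, a fast voltage-gated channel with rapid inactivation, read 6.48, 5.81 and 5.51 in GER, against 8.34 and 8.91 in DC. Both DC arrays and BM detected it and no other array did, and it was at least 2.57-fold lower in GER (means 5.94 in GER and 8.63 in DC, adjusted p = 0.00075). Against DC it was also at least 2.84-fold lower in HC (adjusted p = 7.3e-05), where it read 6.36, 5.71, 5.59 and 6.59. Both genes passed within beadchip 1, which holds all DC arrays (adjusted p = 0.0038 for Kcnk6 and 0.0076 for Kcnc4).

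Kcnj16 and Kcnj15 were higher on both DC arrays than on any GER array without passing. Kcnj16 differed by -1.28 ± 0.33 (adjusted p = 0.053), and passed without GER A (-1.55, adjusted p = 0.022). Kcnj15, an inward rectifier related to the channel of supporting cells, read 6.76, 6.73 and 5.51 in GER, against 7.63 and 7.31 in DC, and was detected on the DC arrays alone (adjusted p = 0.21). Kcna2 behaved likewise below the detection limit (adjusted p = 0.060), and passed without GER C (adjusted p = 0.034).

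CD271high was compared with the mean of HC, GER and DC. Of the 6 kept leak channels 3 were higher there (Kcnk5, Kcnk6 and Kcnk13), 2 lower (Kcnk1 and Kcnk3) and 1 did not pass. The voltage-gated Kcna1, Kcna2 and Kcnq1 and the auxiliary Kcnab2 and Kcne1l were higher as well. In all 8 genes passed as higher and 9 as lower, where 43.6% of all genes passed, 19.4% as higher and 24.2% as lower. Passing without overlap were 9 of the 32 genes (28.1%), against 22.5% of all genes tested. The median difference was -0.14 and the median absolute difference 0.75, against -0.08 and 0.40 over all genes tested. With undetected sides at their bounds the median absolute differences were 0.22 and 0.34.

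Kcnk6, whose channel in mouse macrophages is known for potassium efflux ahead of inflammasome activation, read 11.73, 11.14 and 11.21 in CD271high, against 7.60, 6.58, 6.51 and 7.06 in HC, 6.23, 5.75 and 5.72 in GER and 8.52 and 8.95 in DC. Every CD271high array was above every other array of the comparison, with DC next and GER lowest. The fold was 18.02 (4.17 ± 0.24, adjusted p = 5.8e-08), against a mean in which 3 of 9 arrays, and none of GER, counted as detected. The second probe gave 3.38 (adjusted p = 3.9e-08), and the values within beadchips 1 and 2 were 3.74 and 5.51. Against DC alone, the nearest population of the comparison, CD271high was 6.19-fold higher (adjusted p = 7.4e-05). The BM array, which was not tested, detected Kcnk6 at 9.38, above both DC arrays and below every CD271high array.

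Kcnk13, a leak channel known from microglia, read 9.07, 8.86 and 8.84 in CD271high, against 5.77, 5.19, 5.79 and 5.59 in HC, 5.05, 5.67 and 5.06 in GER and 5.24 and 5.59 in DC. It was detected on the 3 CD271high arrays and on no other array, BM included, where it read 5.24. Its bound was 3.49-fold higher in CD271high (means 8.92 in CD271high and 5.42 over HC, GER and DC, adjusted p = 2.1e-08), and it passed within each beadchip (adjusted p = 5.4e-05 and 0.0045).

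Kcnk5 read 9.32, 9.72 and 9.82 in CD271high, above every HC, GER and DC array, of which HC D was the highest at 8.70. The fold was 4.16 (2.06 ± 0.43, adjusted p = 0.0023). A second, dimmer probe detected on 3 arrays gave 0.71 and did not pass (adjusted p = 0.057), and the brighter probe did not pass within beadchip 2 (1.58, adjusted p = 0.36).

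Kcna2, a shaker channel of myelinated axons, read 8.44, 8.34 and 7.77 in CD271high and was detected on no HC, GER or DC array, where it read 5.46 to 6.95. The BM array detected it as well, at 8.11, within the range of CD271high. It was at least 2.10-fold higher in CD271high (means 8.18 in CD271high and 6.27 over HC, GER and DC, adjusted p = 2.0e-05). Kcna1, its partner in many axons, read 7.52, 6.65 and 5.66 in CD271high, against 5.21 to 5.60 on the HC, GER and DC arrays. Only CD271high A counted as detected, so no bound is given (adjusted p = 0.0037), and without that array the difference was 0.77, against 1.23 with it. The glial markers moved with both genes: their sums in CD271high were 80800, 61720 and 53540, against 1823 to 16610 in HC, GER and DC, and their part in these differences was not tested.

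Kcnq1 read 7.95, 8.25 and 8.01 in CD271high, above all HC, GER and DC arrays, and was 2.35-fold higher (1.24 ± 0.16, adjusted p = 6.6e-05). It was 1.65-fold higher than in GER alone (adjusted p = 0.016) and 1.99-fold higher than in DC alone (adjusted p = 0.0055). Kcne1, its auxiliary subunit, was detected on no CD271high array, where it read 5.72, 6.08 and 5.68. Kcne1l read 7.89, 8.12 and 7.62 and passed against the mean (1.69-fold, adjusted p = 0.015), but it overlapped GER and DC, and the call was lost without CD271high A (adjusted p = 0.051) or CD271high B (0.082).

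Kcnab2 and Kcnh2 took a middle place. Kcnab2 read 9.89, 10.30 and 10.03 in CD271high, below every HC array and above every GER and DC array. It was 1.83-fold higher than the mean (0.87 ± 0.19, adjusted p = 0.0024), 4.17-fold higher than in GER (adjusted p = 2.7e-05), 3.43-fold higher than in DC (adjusted p = 0.00023) and 2.34-fold lower than in HC. Kcnh2 read 9.004, 8.53 and 9.86 in CD271high and did not differ from the mean past the threshold (-0.08 ± 0.22, adjusted p = 0.80), being 1.97-fold higher than in GER (adjusted p = 0.014), 2.01-fold higher than in DC (adjusted p = 0.025) and 4.66-fold lower than in HC. Without CD271high C, the highest of the 3, Kcnh2 passed as lower than the mean (-0.44, adjusted p = 0.040).

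**Figure D4:**
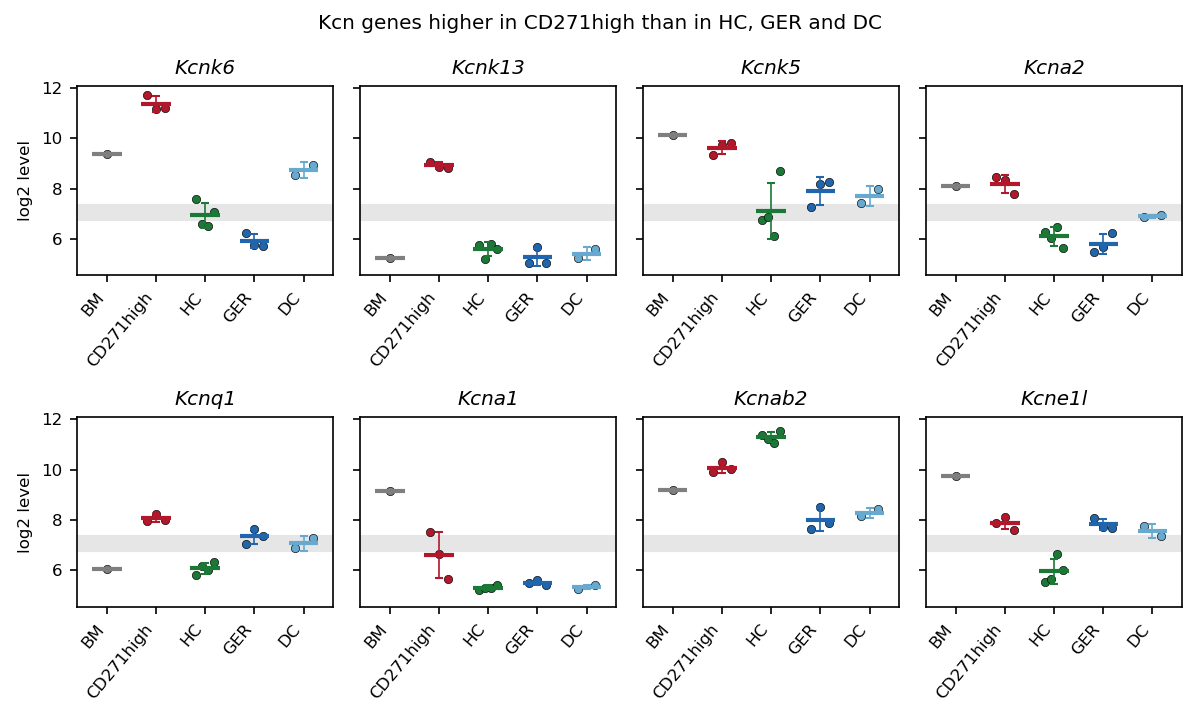
Log2 level of the 8 Kcn genes higher in CD271high than in HC, GER and DC, for every array (points) with the mean and SD of each population (bars); the grey band is the range over arrays of the lowest detected level. Kcnk6 and Kcnk13 stand above all other populations in CD271high, whereas Kcnk5, Kcna1 and Kcne1l are higher on the BM array. Kcna2 on the BM array lies within the range of its CD271high points.

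Of the 9 genes lower in CD271high, 4 were undetected there and had their highest mean in HC or DC. Kcna10 and Kcnip3 were the genes of HC described above, and against GER alone CD271high did not differ past the threshold in Kcna10 (adjusted p = 1.0) and was above it in Kcnip3, with both sides undetected (adjusted p = 0.0094). Kcnc4 passed at a bound of 1.03-fold lower (adjusted p = 0.00081) and Kcnk3 at 1.10-fold lower (adjusted p = 0.0094), both undetected in CD271high. Kcnk3 did not pass without CD271high C (adjusted p = 0.057).

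Among the other 5, Kcnk1 read 12.15, 12.17 and 11.65 in CD271high, below every HC, GER and DC array, and was 1.60-fold lower (-0.68 ± 0.14, adjusted p = 0.0015). Kcnu1, a pH-gated channel known from sperm, read 6.92, 6.46 and 6.98 in CD271high, against 7.24, 7.10, 8.05 and 8.65 in HC, 7.02, 7.57 and 7.45 in GER and 7.82 and 7.90 in DC, which is 1.82-fold lower (-0.87 ± 0.29, adjusted p = 0.029). This call was lost without DC B (adjusted p = 0.055), CD271high A (0.060) or CD271high B (0.13), and with median scaling (0.053).

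Kcnj16 read 7.41, 6.78 and 7.12 in CD271high, within the range of GER, and was 1.65-fold lower than the mean (adjusted p = 0.031). It did not pass without DC B (adjusted p = 0.072), CD271high B (0.15) or CD271high C (0.078), or with median scaling (0.0504). Kcnj15 was detected in DC alone and passed at an adjusted p of 0.045, a call lost without any 1 of 9 arrays. Both turned sign within beadchip 2. For the 17 genes in all, 16 calls passed within beadchip 1 and 7 within beadchip 2: Kcna1, Kcna10, Kcna2, Kcnip3, Kcnk13, Kcnk6 and Kcnq1.

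Kcnmb4 was bright in CD271high at 9.76, 9.84 and 10.26 without passing (0.75 ± 0.30, adjusted p = 0.059). It passed without HC D (0.86, adjusted p = 0.0079) and without GER C (0.82, adjusted p = 0.046), and of its other 2 probes 1 passed (1.01, adjusted p = 0.0040) and 1 did not (0.52, adjusted p = 0.17). Kcnn4 read 6.91, 6.46 and 6.92 in CD271high and did not pass (adjusted p = 0.80).

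BM had 1 array, so its levels were set against the range of the 12 other arrays without a test. Of the 32 genes 11 lay above all 12 arrays and 4 below, where 18.8% of all genes lay above and 15.9% below. The widest gap was that of Kcnk2, at 10.80 in BM, against 5.66 to 7.49 on the other arrays. Kcne1l read 9.77 in BM, against 5.55 to 8.12, and Kcna1 9.14, against 5.21 to 7.52.

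Kcnj8, the pore of the vascular ATP-sensitive channel, read 8.72 in BM, against 5.54 to 7.47 on the other arrays, and Abcc9, the sulphonylurea receptor that pairs with it, read 9.28, against 5.18 to 8.16. Both genes had their next highest value on HC D. Kcnc4 read 9.42 in BM, against 5.40 to 8.91 elsewhere, and Kcnk5 10.12, against 6.11 to 9.82. Kcnab1, high in HC, was as high in BM at 9.52, against 5.38 to 9.37. Kcnmb4, Kcnn1, Kcnrg and Kcnu1 also lay above all other arrays.

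Below all other arrays in BM were Kcnk1 at 10.92, against 11.65 to 12.995, Kcnj16 at 5.71, against 6.66 to 8.79, and the dim Kcnj4 and Kcna10. Kcnk3, high in HC, read 8.51 in BM, above every CD271high, GER and DC array. The summed marker levels of glia, mesenchyme, endothelium and pericytes were each highest in BM, and the part of these cells in the Kcn levels was not tested.

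**Figure D5:**
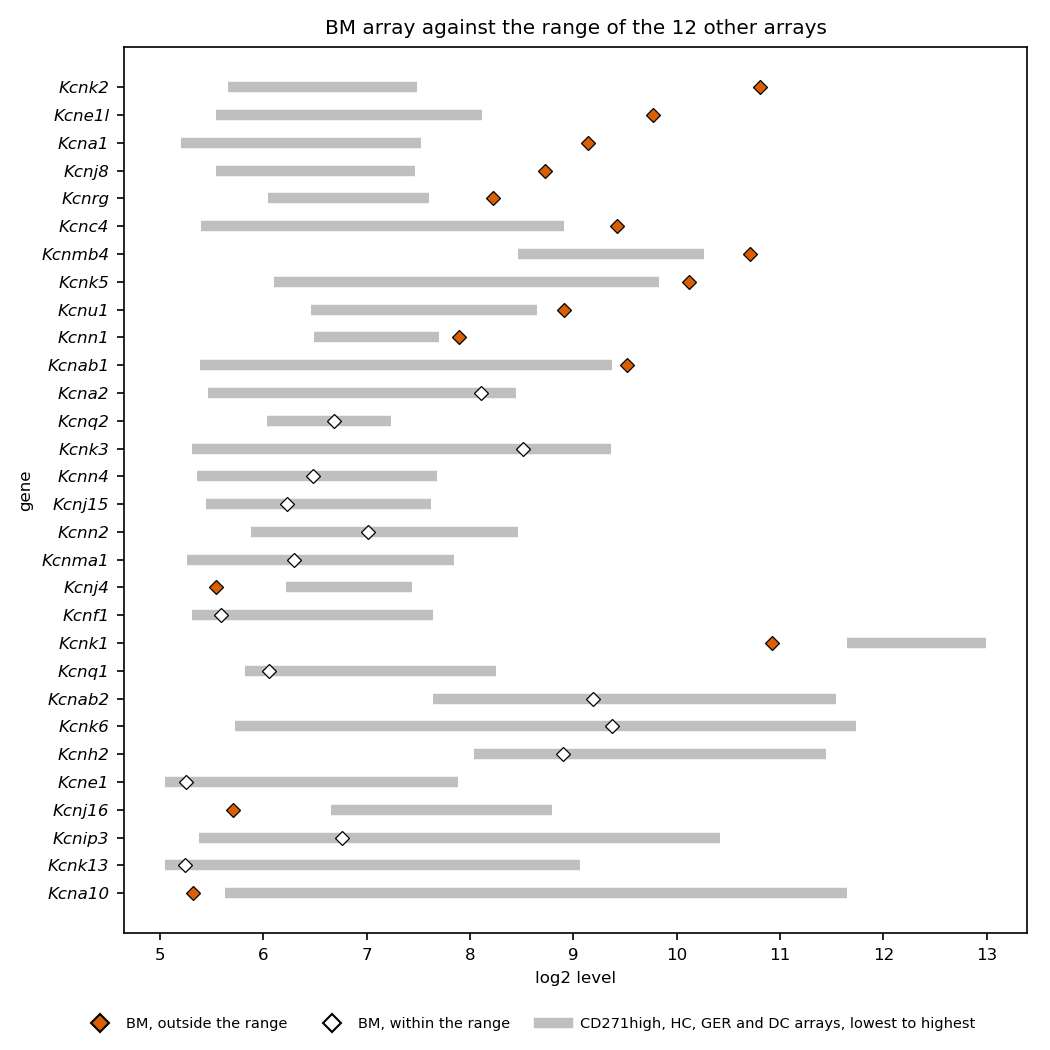
Log2 level of 30 of the 32 kept Kcn genes on the BM array (diamonds, filled where BM lies outside the range) and the range from the lowest to the highest of the 12 CD271high, HC, GER and DC arrays (grey bars). Kcnk2 at 10.80, Kcne1l at 9.77 and Kcna1 at 9.14 stand furthest to the right of their ranges, and Kcnk1 at 10.92 lies left of its own.

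There were 4 lists of genes that work beside potassium channels. Of 10 channel partners outside the Kcn names that were kept, 6 were higher in HC, 0 lower (1 lower at an unadjusted p under 0.05 with limma) and 4 did not pass, where 19.5% of all genes were higher and 26.5% lower. Their median difference was 0.80, against -0.09 over all genes tested. Hcn2, a pacemaker channel of the same superfamily that passes sodium and potassium, was detected on all HC arrays (9.58, 9.23, 9.48 and 9.53) and on no GER or DC array, at least 5.06-fold higher (adjusted p = 8.3e-10). Dpp10, an auxiliary subunit of Kcnd channels, read 9.74, 10.12, 10.60 and 9.89 in HC, against 7.97, 7.996 and 8.06 in GER and 8.79 and 8.39 in DC (3.46-fold, adjusted p = 7.2e-05). In Abcc8, a sulphonylurea receptor, the bound was 2.02-fold higher for HC (adjusted p = 3.6e-05). Amigo1, a membrane protein of the channel partner list, was 2.92-fold lower in GER than in DC (adjusted p = 0.0052). In CD271high 6 of the 10 were lower and 1 higher, Lrrc26, an auxiliary subunit of Kcnma1, which was at least 2.52-fold higher (adjusted p = 3.7e-05).

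Calcium channels and their binding proteins, which supply the calcium that opens Kcnma1 and Kcnn channels, went both ways in HC: of 10 kept, 3 were higher, 3 lower and 4 did not pass, where 19.5% of all genes were higher and 26.5% lower, with a median difference of -0.29. Cabp2, a calcium-binding regulator of the hair cell calcium channel, read 13.60, 12.66, 12.89 and 12.50 in HC, against 6.48, 6.05 and 5.40 in GER and 7.42 and 6.50 in DC, 86.9-fold higher (6.44 ± 0.30, adjusted p = 6.9e-09), a fold against levels of which only 1 of 5 arrays counted as detected. Cacnb2 and Cacna1d, subunits of that channel, were at least 6.36-fold (adjusted p = 1.7e-09) and 2.47-fold higher (adjusted p = 3.6e-05). Cacna2d1 and Cacna1h were 3.76-fold (adjusted p = 0.00023) and 3.15-fold lower (adjusted p = 0.00020). In CD271high 1 was higher and 5 lower, and in GER against DC 1 was lower.

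Sodium pump genes, whose product loads cells with potassium, were higher in CD271high in 6 of 9 kept genes and lower in 2, where 19.4% of all genes were higher and 24.2% lower, with a median difference of 0.99 against -0.08 over all genes tested. Fxyd3, a small regulator of the pump, read 13.49, 13.39 and 13.24 in CD271high, against 9.84, 9.37, 9.19 and 9.34 in HC, 10.46, 10.74 and 10.32 in GER and 10.61 and 11.40 in DC (8.32-fold, adjusted p = 1.1e-07). The glial sums given above were also higher in CD271high than in HC, GER and DC. On the BM array, where the glial sum was highest, Fxyd3 read 9.11, below all other arrays. The part of glial cells in these differences was not tested. In HC 1 of the 9 was higher and 4 lower, led by Fxyd6 (3.04-fold lower, adjusted p = 5.9e-07), and in GER against DC 1 was lower.

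Of the cation chloride cotransporters, some of which move potassium with chloride, 7 genes were kept. In HC 2 of these were lower and 0 higher (0 also at an unadjusted p under 0.05 with limma), where 26.5% of all genes were lower. Slc12a2, the cotransporter that loads potassium into secretory epithelia, was bright on all arrays and 1.37-fold lower in HC (-0.45 ± 0.16, adjusted p = 0.035). Slc12a8 marked DC, with 8.12, 7.55 and 7.42 in GER, against 10.83 and 11.09 in DC, 9.61-fold lower in GER (-3.26 ± 0.38, adjusted p = 0.00045), and was also 6.52-fold lower in HC than in the mean of GER and DC (adjusted p = 1.0e-05). Slc12a7, a cotransporter of Deiters' cells needed for hearing in mice, was 2.07-fold lower in CD271high (adjusted p = 0.00020).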

How the data were processed

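Members and lists were chosen with earlier results of these data known. The authors deposited a scanner table of 13 arrays that holds, per the file headers, an average bead intensity, not normalized, for each of 25697 probes, and a detection p-value per probe, also per the file headers. A second deposited table holds log2 values normalized by the authors (median 8.143 on every array) and served as an alternative. The 26 columns of bead errors and bead counts were not used. No source used here gives the scanner settings. Sample titles gave populations and replicate letters, and for GER C the description field has another letter. Per the labels' protocols, RNA was extracted with a Macherey-Nagel kit and labelled with an Ambion MessageAmp kit.

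Probes were joined to the GRCm38.p6 RefSeq gene table (24356 matched, 1341 kept the file's symbol; 118 of 120 Kcn probes matched). Background correction (normexp on the detection p-values, offset 16), quantile normalization and log2 were done by neqc of limma 3.58.1 in R 4.3.3. The 13192 probes whose detection p was under 0.01 on 2 or more arrays were kept, and each gene was read from its brightest probe (10088 genes, 40 Kcn probes for 32 genes, 7 of them with several). lmFit fitted 1 mean per population over 13 arrays (8 residual and 3.7 prior degrees of freedom) with eBayes. The contrasts were HC minus the mean of GER and DC, GER minus DC, and CD271high minus the mean of HC, GER and DC, two-sided, with Benjamini-Hochberg adjustment over all genes and a threshold of 0.05. BM was not tested. The fit was tested on simulated data. Median raw signals were 252.5 to 323.9. Of the 2 beadchips, the second held HC B to D, GER C and CD271high A, and the first all other arrays.

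Values were named for every kept Kcn gene past the threshold whose sides did not overlap, up to 10 per direction and comparison, for members known from the cochlea, and in the partner lists for up to 6 genes per comparison with the largest difference. The alternatives were the authors' log2 table, median scaling, an offset of 50, other filters, the mean of a gene's probes, the beadchip, the replicate letter, array weights, single populations on the second side, and leaving out each array. Results of some genes are not reported here: they enter the counts and the fit but not the named values or the plots.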

Additional observations from a re-analysis of the deposited data

Results flagged for a closer look

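In the 4 HC arrays, 3 of the 32 genes had a highest or lowest array whose gap to its neighbour took most of the range by Dixon's ratio of that gap to the range, past its critical value for 4 arrays. Chance alone marks about 1 in 20 groups so tested. Kcna10 on HC A read 11.65 beside 10.92 to 11.00 on the other HC arrays (ratio 0.8949), in a gene detected on all 4. Kcne1 on HC B read 6.95 beside 5.05 to 5.35 (ratio 0.8432), with no HC array detected. Kcnk2 on HC C read 5.66 beside 5.94 to 5.99 (ratio 0.8333), again with no HC array detected.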

How the results depend on the processing

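The counts of Kcn genes called were 18 for HC against GER and DC, 2 for GER against DC and 17 for CD271high. They moved by over 1.5 times in 4 settings: to 9 for HC within beadchip 2, which holds no DC array (8 of them shared, with 14.1% of all genes called there), to 7 for CD271high within beadchip 2 (15.3% of all genes), to 4 for GER against DC with array weights, and to 11 for CD271high against GER alone. Leaving out each array in turn gave 16 to 20 calls for HC, 2 to 3 for GER against DC and 13 to 20 for CD271high. Same-letter arrays did not deviate together (4 of 15 pairs with r over 0.1, range -0.13 to 0.18), and the replicate block gave 19, 2 and 20 calls.

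Over 96 gene results and 2007 alternatives, 1867 kept direction and side of the threshold, 67 lost a call, 60 gained one and 13 turned sign. Against GER alone the HC difference was 1.04 for Kcnk6 (adjusted p = 0.0081) and 0.13 for Kcnc4. Within beadchip 2 it was 0.45 for Kcnc4 and 0.12 for Kcnrg. The CD271high difference within beadchip 2 was 0.50 for Kcnj15 and 0.12 for Kcnj16. Against GER alone it was 0.0010 for Kcna10, 0.84 for Kcnip3, 0.98 for Kcnh2 and 0.083 for Kcnj16, against DC alone 0.74 for Kcnip3 and 1.005 for Kcnh2, and against HC alone -1.23 for Kcnab2. Settings within a beadchip or against 1 population use fewer samples or leave out a population that held the gene; other causes were not tested. For 7 of the 10 genes higher in HC no GER or DC array was above background, so only a lower bound can be given.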
